A study of Mus musculus with 16 samples.

Results

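The 37 genes described here encode the enzymes that put acetyl groups on histones, the bromodomain proteins that bind acetylated histones, and the subunits of the SIN3, NCOR, CoREST and NuRD corepressor complexes, which carry histone deacetylases (HDACs) to chromatin. They were chosen by symbol for what they encode, with earlier results of these data known, and all 37 were found among the 24028 genes counted. RNA came from CD8 T cells sorted from TS/A tumours, which are mouse mammary adenocarcinoma cells injected into the mammary pad of BALB/c mice. Mice received entinostat, a benzamide that inhibits class I HDACs, or vehicle. Dosing was daily at 20 mg/kg and began on day 7 after injection of the tumour cells. Tumours were collected at day 10 or day 17, 3 or 10 days after the first dose, and the sort kept live cells positive for CD45.2 and CD8 and negative for CD4. There were 4 libraries each of entinostat day 10, vehicle day 10, entinostat day 17 and vehicle day 17. All groups carried the same tumour line in the same strain. Nothing in the labels states that each library of a group is a separate mouse. The p-values therefore refer to spread among the libraries at hand, and some of it may be technical.

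Acetyl groups on histone tails loosen chromatin and are read by bromodomains, and HDACs remove them. HDAC1 and HDAC2 act mostly inside SIN3, NuRD and CoREST, and HDAC3 acts inside NCOR, so the proteins described here are the partners and the opponents of the enzymes that entinostat blocks. In CD8 T cells these regulators are known for controlling which effector and memory genes stay accessible during a response. In these data the transcript that stood apart was Mbd2, a methyl-CpG binding subunit of NuRD, which was lower with entinostat at day 10 and higher with entinostat at day 17. Crebbp and Mbd3 were lower at day 10, and Brd3 and Chd3 were lower at day 17, under every alternative setting run. The other 11 calls at day 17, Kat2a and Sap30 among them, were each lost under at least 1 other scaling, gene filter, covariate or choice of libraries.

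Depth was 554593 counts in entinostat day 17 replicate 3 and ran from 2585561 to 6975904 counts in the other 15 libraries. Counts were put on a common scale per library (CPM, with TMM factors), and means are given ± SD over 4 libraries unless an SE is named. CD8 T cell markers were present, with 8 of 8 detected and none at 0 in any group. The sums that follow, and the comparison of members with the background, are in CPM by library size without TMM. Background was read from the receptor genes of smell and pheromone sensing, silent in T cells, whose reads summed to 586 to 5722 CPM with entinostat and 582 to 1863 CPM with vehicle at day 10, and to 3628 to 6901 CPM with entinostat and 636 to 5290 CPM with vehicle at day 17. The 95th percentile of those receptor genes was 7.51 CPM, and all 37 members averaged above it. The summed level of 18 plasmacytoid dendritic cell markers was 686 to 1222 CPM with entinostat and 1713 to 3644 CPM with vehicle at day 10, and 833 to 1077 CPM with entinostat and 3344 to 4244 CPM with vehicle at day 17. Of these 18 markers 17 were lower with entinostat on each day, and none of the 18 was at 0 in all libraries of a group. The 7 conventional dendritic cell markers summed to 314 to 473 CPM with entinostat and 359.8 to 855 CPM with vehicle at day 10, and to 292 to 432 CPM with entinostat and 838 to 1259 CPM with vehicle at day 17, with 3 lower at day 10 and 4 lower at day 17. The 8 CD8 T cell markers summed to 2181 to 2759 CPM with entinostat and 2323 to 2609 CPM with vehicle at day 10, and to 2607 to 4075 CPM with entinostat and 2006 to 2536 CPM with vehicle at day 17, where the groups did not overlap, although 0 of the 8 passed the test on either day. Sums of 5 CD4 T cell markers at day 10 (594 to 724 CPM with entinostat and 482 to 543 CPM with vehicle) and of 5 natural killer cell markers at day 17 (46.4 to 106 CPM with entinostat and 20.1 to 41.0 CPM with vehicle) were also higher with entinostat without overlap. The CD4 sum rested mostly on Ctla4 and Ikzf2 (means of 327 and 170 CPM), and 0 of its 5 genes were called higher and 1 lower at day 10. The natural killer sum rested mostly on Klre1 (mean of 28.0 CPM), and Klra4 was at 0 in 16 libraries. Of 3 natural killer genes tested, 1 was higher at day 17, with a median log2 fold change of −0.06. Cd4 itself fell by 1.66 at day 10 and by 2.75 at day 17 on the log2 scale (edgeR adjusted p = 0.00297 and 2.03e-05). Sums of 9 tumour and stroma markers at day 10 were 131 to 505 CPM with entinostat and 137 to 393 CPM with vehicle. At day 17 they were 188 to 571 CPM with entinostat and 288 to 1484 CPM with vehicle. These sums, and those of 6 B cell and 11 myeloid markers, overlapped between treatments on both days. Of 7 tumour and stroma genes tested, 1 was lower with entinostat at day 10 and 3 at day 17. With vehicle, 2 of these 7 were higher at day 17 than at day 10. The summed level of 18 proliferation genes was 1362 to 1523 CPM with entinostat and 1258 to 1722 CPM with vehicle at day 10, and 2700 to 3510 CPM with entinostat and 1616 to 2104 CPM with vehicle at day 17. The part of these differences in the members' values was not tested. In bulk RNA, fewer cells of a type and less RNA per cell cannot be told apart. With vehicle the plasmacytoid sum had a median of 3170 CPM at day 10 and 4030 CPM at day 17. The CD8 T cell sum had medians of 2535 and 2229 CPM there. With entinostat these medians were 917 and 942 CPM against 2485 and 2929 CPM. Member values are thus those of the whole sort, not of CD8 T cells alone.

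Among the members, transcript levels per kilobase of annotated exon spanned a wide range. Mta2, a scaffold of NuRD, was the most abundant at 74.5 CPM per kb over the 16 libraries, ahead of the histone-binding protein Rbbp7 at 70.0 and Gatad2a, a bridging subunit of NuRD, at 53.6 CPM per kb. Brd2, a bromodomain protein of the BET family, had 50.5 CPM per kb and Mbd3 had 42.7 CPM per kb. At the low end stood Rcor3 at 2.98, Kat6b at 2.85 and Gatad2b at 2.51 CPM per kb. These levels per length describe the order of genes and not a difference between groups. Ranges over single libraries overlapped for neighbours in this order: Mta2 ran from 58.4 to 95.1 and Rbbp7 from 55.8 to 86.7 CPM per kb. Within the pairs of alternative subunits, 1 partner was mostly the more abundant: Gatad2a over Gatad2b, Kat6a over Kat6b (16.9 against 2.85 CPM per kb), Brd2 over Brd3 (50.5 against 8.34 CPM per kb), and Chd4 over Chd3 (36.7 against 21.0 CPM per kb).

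With entinostat at day 10, 0 members rose and 5 fell (edgeR quasi-likelihood test, Benjamini-Hochberg adjusted p under 0.05), against 7.63% of the 17414 genes tested that rose and 6.93% that fell. DESeq2 called 0 members higher and 5 lower, against 13.2% of all genes higher and 7.48% lower. With limma-voom 0 were higher and 14 lower, against 20.5% of all genes higher and 18.2% lower. Its lower calls not made by the edgeR fit were Brd3, Ncor1, Kdm1a, Chd3, Chd4, Mta2, Gatad2a, Rbbp7 and Sirt1. An unadjusted edgeR p under 0.05 was found for 13 of the 37, without a share over all genes to set beside it. The members' median log2 fold change was −0.22, and the median over all genes tested was 0.06. With entinostat at day 17, 2 members rose and 12 fell, against 5.29% of all genes that rose and 13% that fell, with a member median of −0.17 and a median over all genes of −0.01. The size of the members' shift, and the balance of higher and lower calls, depended on scaling, while the members' median stayed below 0. With library size alone the median of all genes was 0.22 at day 10 and 0.14 at day 17, and that of the members was −0.06 and −0.02. Under that scaling 0 members were called higher and 3 lower at day 10, and 3 higher and 2 lower at day 17, against 9.17% of all genes higher and 2.89% lower at day 10, and 7.79% higher and 8.36% lower at day 17. With scaling and test restricted to 11992 genes above the receptor background, 0 were higher and 5 lower at day 10, and 4 higher and 3 lower at day 17, against 6.26% of those genes higher and 5.62% lower at day 10, and 8.54% higher and 12.4% lower at day 17. Fold changes and calls below are those of the edgeR fit in the TMM scaling unless another setting is named. Of the 12 lower calls at day 17, Brd3 and Chd3 were also made with library size alone, and 10 were lost. With RLE scaling 7 of the 12 were made, for Brd3, Chd3, Kat6a, Brd8, Brd9, Sap30 and Mbd3, and DESeq2 made these and that of Kat5. Of all genes, RLE scaling called 9.79% lower at day 17 and DESeq2 11%. Single libraries also moved the count of 14 at day 17. It was 6 with either replicate 1 or replicate 4 of the entinostat group left out, 8 with its replicate 3 left out, 6 with vehicle replicate 1 left out and 9 with vehicle replicate 3 left out, all of day 17. Calls over all genes fell in those fits too, to 437 to 590 higher and 1356 to 1611 lower, against 922 and 2268 with all libraries. Of the 5 members lower at day 10 and the 12 lower at day 17, Kat2a, Mbd3 and Sap30 were called lower on both days. The share of all genes called lower on both days was not computed, so this overlap cannot be called particular to the members. A test of the difference between the day 17 and the day 10 effect called 1 member higher and 0 lower, where 0.218% of all genes were called higher and 0.253% lower. DESeq2 called 3 members higher and 0 lower in that test, where it called 329 of all 17414 genes higher and 234 lower. An unadjusted edgeR p under 0.05 was found for 10 members, again without a share over all genes.

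**Figure D1:**
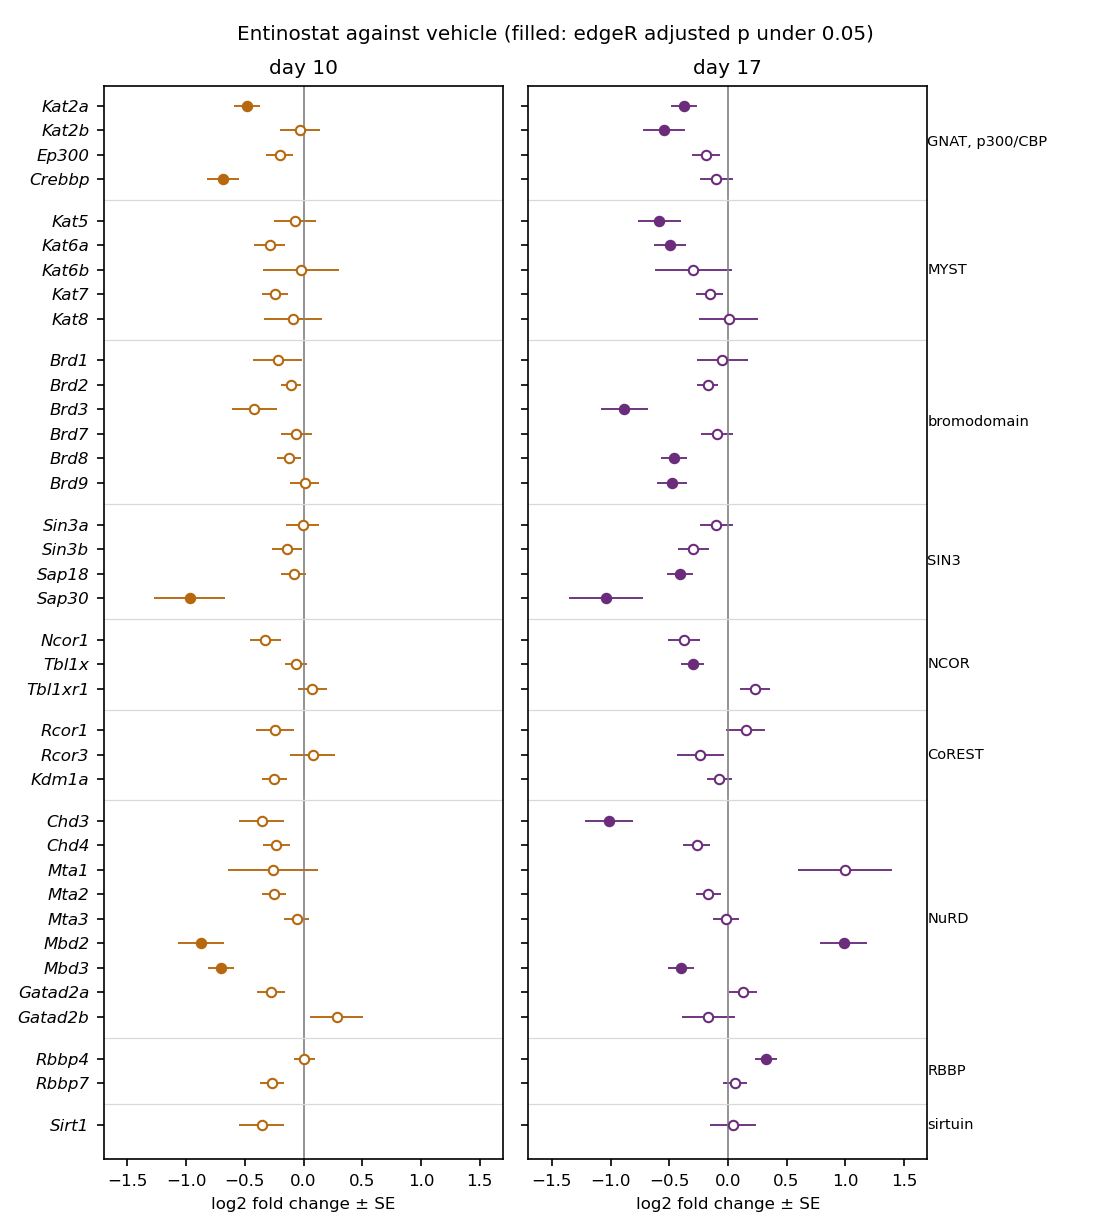
Log2 fold change of entinostat over vehicle with its SE (horizontal axis) for the 37 members grouped by complex (vertical axis), at day 10 on the left and day 17 on the right, with filled points for an edgeR adjusted p under 0.05. Mbd2 lies at −0.87 at day 10 and at 0.99 at day 17, and most other points lie left of 0 on both days in this TMM scaling.

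**Figure D2:**
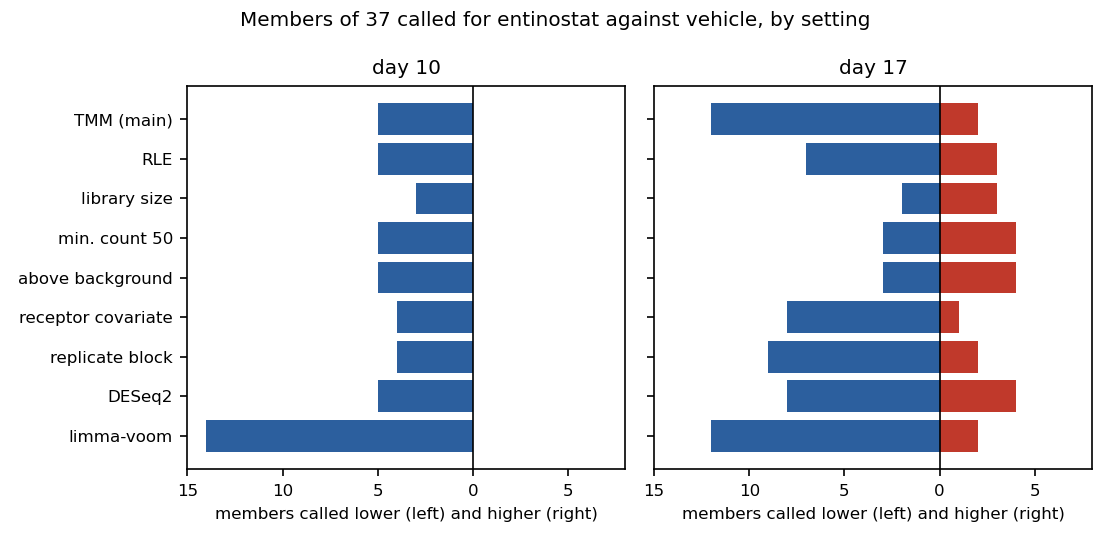
Number of the 37 members called lower (blue, to the left) and higher (red, to the right) for entinostat against vehicle at day 10 and day 17 under the TMM fit and 8 alternative settings. At day 17 the TMM fit called 12 lower and 2 higher, while library size alone called 2 lower and 3 higher.

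The promoter sequences of 4 members are shown because their transcripts changed with entinostat and RefSeq lists a start site: Crebbp, Mbd3 and Brd3 were lower under every alternative on 1 of the days, and Rbbp4 was higher at day 17. Each runs from 250 bases before to 50 bases after the start, 5′ to 3′ on the gene's own strand, from the RefSeq table of GRCm38.p6. All 4 genes lie on the minus strand. Capitals mark the GC box GGGCGG, the NFY box CCAAT, the E2F letters TTGGCGC, the NRF1 core GCGCATG and the E-box CACGTG, or their reverse complements.
Crebbp (chr16:4213355-4213654): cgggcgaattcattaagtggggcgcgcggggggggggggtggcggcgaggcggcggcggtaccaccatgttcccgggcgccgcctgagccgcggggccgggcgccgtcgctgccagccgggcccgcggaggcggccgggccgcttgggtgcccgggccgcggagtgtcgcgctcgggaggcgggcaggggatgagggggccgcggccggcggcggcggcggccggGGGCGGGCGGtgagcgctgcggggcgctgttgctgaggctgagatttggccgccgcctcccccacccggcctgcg
Mbd3 (chr10:80399482-80399781): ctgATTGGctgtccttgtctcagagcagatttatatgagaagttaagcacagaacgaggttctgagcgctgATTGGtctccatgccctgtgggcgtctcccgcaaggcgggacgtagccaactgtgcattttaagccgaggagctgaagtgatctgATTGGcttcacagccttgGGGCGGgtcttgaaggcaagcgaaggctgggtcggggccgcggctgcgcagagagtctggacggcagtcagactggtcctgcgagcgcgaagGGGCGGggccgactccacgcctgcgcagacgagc
Brd3 (chr2:27475349-27475648): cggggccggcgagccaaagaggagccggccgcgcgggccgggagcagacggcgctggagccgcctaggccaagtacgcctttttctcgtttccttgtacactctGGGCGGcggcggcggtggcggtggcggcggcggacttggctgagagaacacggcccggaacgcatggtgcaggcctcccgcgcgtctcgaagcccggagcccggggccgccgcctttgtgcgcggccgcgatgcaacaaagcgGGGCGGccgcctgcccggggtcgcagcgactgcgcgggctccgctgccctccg
Rbbp4 (chr4:129335321-129335620): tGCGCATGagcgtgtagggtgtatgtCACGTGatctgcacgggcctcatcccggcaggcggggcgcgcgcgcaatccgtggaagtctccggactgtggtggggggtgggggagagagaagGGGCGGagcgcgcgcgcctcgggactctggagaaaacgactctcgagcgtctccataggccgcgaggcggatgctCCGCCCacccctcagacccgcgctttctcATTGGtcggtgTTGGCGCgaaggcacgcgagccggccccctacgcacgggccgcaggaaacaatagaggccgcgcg
The Crebbp window held 49 CpG dinucleotides, Brd3 46, Rbbp4 39 and Mbd3 22, and the Crebbp capitals are a pair of GC boxes that share bases. Over all members 44 promoter entries of 32 genes had a median of 29 CpG, against a median of 7 over 32851 promoters of the table. For the sequences below, a member counts if any of its entries holds the letters, while the share over all is per promoter entry. Members with several entries thus have more chances of a match, and the 2 numbers are not alike. Of the 32 members with an entry, 27 held GGGCGG on either strand, a sequence found in 35.7% of all promoters. CCAAT was in 13 members and in 37.4% of all promoters, and the ETS letters CCGGAAG were in 8 members and in 8.9% of all promoters. The CRE core TGACG was in 15 members and 20.8% of all promoters, GCGCATG in 4 and 3.9%, CACGTG in 3 and 7.2%, and TTGGCGC in 2 and 2.5%. Mbd3 was the only one of the 4 shown with 3 NFY boxes, and it shares the GC box with members that did not pass the test. These matches describe the letters in the windows and were not tied to any binding data.

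The acetyltransferases were lower or not called with entinostat. The GNAT and p300/CBP enzymes had 2 of 4 lower at day 10 and 2 of 4 lower at day 17, and the MYST enzymes had 0 of 5 at day 10 and 2 of 5 lower at day 17. Kat2a (GCN5, chr11:100704746-100712485, GRCm38) is the catalytic subunit of the SAGA and ATAC coactivator complexes. Kat2a had 68.4, 87.8, 78.6 and 72.9 CPM with entinostat at day 10, against 106, 112, 106 and 107 CPM with vehicle. At day 17 Kat2a had 74.6, 83.7, 68.02 and 75.99 CPM with entinostat, against 97.2, 112, 99.3 and 86.8 CPM with vehicle. The groups did not overlap on either day. Kat2a fell by 0.48 ± 0.11 at day 10 (log2 ± SE; edgeR adjusted p = 0.00994) and by 0.37 ± 0.11 at day 17 (edgeR adjusted p = 0.0256). The day 10 call was lost in 2 of 13 other settings, library size alone among them, with an adjusted p of up to 0.0546. The day 17 call was lost in 6 of the 16 fits that each left out 1 library, namely entinostat replicate 1, 3 or 4 or vehicle replicate 1, 2 or 3 of that day, with an edgeR adjusted p of up to 0.104. It was also lost in 8 of 13 other settings, with an adjusted p of up to 0.169.

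Crebbp (CBP, chr16:4081334-4213957) and its paralogue Ep300 are large coactivators that acetylate histone H3 at enhancers. Crebbp had 132, 182, 149 and 167 CPM with entinostat at day 10, against 247, 261, 283 and 225 CPM with vehicle, and the groups did not overlap. At day 17 it had 113, 157, 119 and 117 CPM with entinostat, against 158, 139.76, 104 and 144 CPM with vehicle, and there the groups overlapped. The fall at day 10 was 0.69 ± 0.14 (log2 ± SE; edgeR adjusted p = 0.00504), and it passed in all 13 other settings and all 16 fits that left out a library. At day 17 the log2 fold change was −0.10 ± 0.14 (edgeR adjusted p = 0.656), and the difference between the days, 0.59 ± 0.20, did not pass (edgeR adjusted p = 0.193), although DESeq2 called it. Ep300 averaged 328 ± 14.3 CPM with entinostat and 376 ± 20.3 CPM with vehicle at day 10, and 249.9 ± 52.5 CPM with entinostat and 287 ± 27.3 CPM with vehicle at day 17. Its 4 entinostat libraries at day 10 all lay below the 4 vehicle libraries, yet the difference did not pass (edgeR adjusted p = 0.225).

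Kat2b (PCAF, the paralogue of Kat2a) was called at day 17. It had 58.8, 69.2, 72.99 and 48.8 CPM with entinostat at day 17, against 90.1, 74.4, 80.3 and 115 CPM with vehicle. At day 10 it had 82.2, 78.3, 98.7 and 115 CPM with entinostat, against 89.2, 116, 103 and 74.8 CPM with vehicle, and those groups overlapped. Kat2b fell by 0.54 ± 0.18 at day 17 (log2 ± SE; edgeR adjusted p = 0.0418), a call kept in 5 of 16 leave-one-out fits and 2 of 13 other settings, and the difference of effects between days did not pass (edgeR adjusted p = 0.39).

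Among the MYST enzymes, Kat5 (TIP60, the catalytic subunit of the NuA4 complex) and Kat6a (MOZ, which acetylates histone H3 with BRPF proteins) were lower at day 17. Kat5 had 39.9, 39.6, 19.9 and 31.9 CPM with entinostat at day 17, against 61.1, 43.7, 50.7 and 48.7 CPM with vehicle, and the groups did not overlap. At day 10 Kat5 had 50.2, 55.1, 45.02 and 52.5 CPM with entinostat, against 46.7, 51.3, 56.6 and 59.1 CPM with vehicle, which overlapped. The lowest Kat5 value, 19.9 CPM, came from entinostat day 17 replicate 3, the shallowest library. Kat5 fell by 0.58 ± 0.18 at day 17 (log2 ± SE; edgeR adjusted p = 0.0336), and the call was lost in 9 of 16 leave-one-out fits and 10 of 13 other settings. Rnaseh2c on the opposite strand covers 12.1% of the Kat5 exon bases, and counts without strand cannot separate these genes. Kat6a had 96.5, 133, 84.6 and 103 CPM with entinostat at day 17, against 168, 131, 150.04 and 149 CPM with vehicle. At day 10 Kat6a had 167, 158, 179 and 157 CPM with entinostat, against 226, 196, 227 and 159 CPM with vehicle. Entinostat replicate 2 at day 17 and vehicle replicate 2 at day 17 had nearly the same value, so the groups overlapped slightly. The fall at day 17 was 0.49 ± 0.14 (log2 ± SE; edgeR adjusted p = 0.0172), and it was lost without entinostat day 17 replicate 1, 3 or 4 or vehicle day 17 replicate 1 (edgeR adjusted p up to 0.0847), and in 5 of 13 other settings (adjusted p up to 0.0819).

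The remaining MYST enzymes were called on neither day. Kat7 (HBO1) averaged 177 ± 10.2 CPM with entinostat and 209.6 ± 13.4 CPM with vehicle at day 10, and 179 ± 17.8 CPM with entinostat and 199.7 ± 33.7 CPM with vehicle at day 17. Kat6b (MORF, the paralogue of Kat6a) averaged 45.9 ± 5.46 CPM with entinostat and 46.7 ± 19.4 CPM with vehicle at day 10, and 44.6 ± 16.1 CPM with entinostat and 54.5 ± 22.2 CPM with vehicle at day 17. Kat8 (MOF, which acetylates histone H4) averaged 30.9 ± 2.28 CPM with entinostat and 32.96 ± 9.41 CPM with vehicle at day 10, and 26.01 ± 7.48 CPM with entinostat and 26.2 ± 4.44 CPM with vehicle at day 17.

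None of the 6 bromodomain readers passed at day 10, and 3 of 6 were lower at day 17. Brd3 (chr2:27445576-27507657) is a BET protein that binds acetylated histones and recruits transcription elongation factors. Brd3 had 42.4, 47.9, 36.5 and 37.99 CPM with entinostat at day 17, against 100.3, 58.8, 74.6 and 73.7 CPM with vehicle. At day 10 it had 41.6, 60.8, 43.5 and 70.4 CPM with entinostat, against 68.7, 62.2, 68.02 and 91.8 CPM with vehicle. The groups were apart at day 17, where vehicle replicate 1 was the highest library, and overlapped at day 10. Brd3 fell by 0.88 ± 0.20 at day 17 (log2 ± SE; edgeR adjusted p = 0.00516), and this call passed in all 13 other settings and all 16 leave-one-out fits. At day 10 its log2 fold change was −0.42 ± 0.19 (edgeR adjusted p = 0.136), a value that limma-voom called lower, and the difference between days did not pass (edgeR adjusted p = 0.508).

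Brd2, the other BET protein measured here and the most abundant bromodomain reader per length, averaged 441 ± 18.2 CPM with entinostat and 474 ± 30.6 CPM with vehicle at day 10. At day 17 it averaged 313 ± 17.7 CPM with entinostat and 353 ± 30.3 CPM with vehicle. Neither difference passed (edgeR adjusted p = 0.393 and 0.171).

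Brd8 (a bromodomain subunit of the same NuA4 complex as Kat5) had 124, 103, 103 and 133 CPM with entinostat at day 17, against 173, 138, 162 and 166 CPM with vehicle. At day 10 Brd8 had 179, 157, 138 and 159 CPM with entinostat, against 169, 171, 167 and 183 CPM with vehicle. Only the day 17 groups were apart. Brd8 fell by 0.46 ± 0.11 at day 17 (log2 ± SE; edgeR adjusted p = 0.00706), passed in all 16 leave-one-out fits, and was lost with library size alone, with a minimum count of 50 and with genes above the receptor background.

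Brd9, which defines the non-canonical BAF remodelling complex, had 59.8, 57.6, 61.4 and 55.97 CPM with entinostat at day 17, against 102, 79.4, 75.9 and 66.9 CPM with vehicle. At day 10 Brd9 had 88.9, 82.4, 88.2 and 100.3 CPM with entinostat, against 92.3, 99.5, 85.9 and 80.3 CPM with vehicle. The entinostat values at day 17 lay within a narrow band below all vehicle values. Brd9 fell by 0.48 ± 0.13 at day 17 (log2 ± SE; edgeR adjusted p = 0.0176), a call lost without entinostat day 17 replicate 1, 2 or 4 or vehicle day 17 replicate 1 (edgeR adjusted p up to 0.128), and in 6 of 13 other settings (adjusted p up to 0.13). Brd7, of the PBAF remodelling complex, averaged 72.4 ± 7.38 CPM with entinostat and 75.8 ± 5.32 CPM with vehicle at day 10, and 69.4 ± 7.18 CPM with entinostat and 73.3 ± 12.3 CPM with vehicle at day 17. Brd1, a scaffold of the Kat7 complex, averaged 96.5 ± 38.02 CPM with entinostat and 113 ± 13.3 CPM with vehicle at day 10, and 56.9 ± 10.1 CPM with entinostat and 60.2 ± 9.53 CPM with vehicle at day 17. Neither was called for entinostat, and entinostat day 10 replicate 2, at 147 CPM of Brd1, stood above the other 3 libraries of its group, which had 61.7 to 104 CPM.

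In the SIN3 complex the scaffolds were not called and the small subunits were. Sap30, which helps hold HDAC1 in the complex, was the least abundant member by CPM. Sap30 had 15.6, 14.9, 17.6 and 22.7 CPM with entinostat at day 10, against 35.4, 39.9, 27.3 and 36.6 CPM with vehicle, and the groups did not overlap. At day 17 Sap30 had 9.003, 15.1, 8.29 and 13.6 CPM with entinostat, against 36.7, 19.9, 26.5 and 13.7 CPM with vehicle, and they overlapped through entinostat replicate 2 and vehicle replicate 4. The falls were 0.97 ± 0.30 at day 10 (log2 ± SE; edgeR adjusted p = 0.0405) and 1.04 ± 0.31 at day 17 (edgeR adjusted p = 0.0282). With the replicate number as a block the day 10 value was −0.96 and no longer passed (edgeR adjusted p = 0.0747). The day 10 call was also lost in 12 of 16 leave-one-out fits (edgeR adjusted p up to 0.121), and the day 17 call without entinostat day 17 replicate 1, 3 or 4 or vehicle day 17 replicate 1 or 3 (edgeR adjusted p up to 0.145). On each day the call was lost in 7 of 13 other settings, with an adjusted p of up to 0.218 at day 10 and 0.199 at day 17.

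Sap18, a small subunit shared by SIN3 and by RNA processing complexes, had 60.4, 55.2, 64.7 and 65.1 CPM with entinostat at day 17, against 75.2, 86.3, 77.2 and 85.4 CPM with vehicle. At day 10 Sap18 had 73.6, 86.8, 81.7 and 77.4 CPM with entinostat, against 89.8, 87.6, 84.4 and 77.1 CPM with vehicle. The groups were apart at day 17 and overlapped at day 10. Sap18 fell by 0.41 ± 0.11 at day 17 (log2 ± SE; edgeR adjusted p = 0.0152), a call lost in 8 of 13 other settings (adjusted p up to 0.186) and without entinostat day 17 replicate 1 or 2 or vehicle day 17 replicate 2 (edgeR adjusted p up to 0.0707). The scaffold Sin3a averaged 132 ± 19.5 CPM with entinostat and 133 ± 9.73 CPM with vehicle at day 10, and 99.6 ± 12.8 CPM with entinostat and 106 ± 20.3 CPM with vehicle at day 17. Its paralogue Sin3b averaged 161 ± 21.9 CPM with entinostat and 178 ± 25.1 CPM with vehicle at day 10, and 127 ± 13.7 CPM with entinostat and 157 ± 20.9 CPM with vehicle at day 17. Neither scaffold passed on either day.

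Of the NCOR complex, which carries HDAC3 to nuclear receptors, 1 of 3 members was lower at day 17. Tbl1x, a WD-repeat subunit, had 96.8, 96.1, 106 and 87.5 CPM with entinostat at day 17, against 119, 101, 125 and 126 CPM with vehicle. At day 10 Tbl1x had 122, 115, 121 and 119 CPM with entinostat, against 119, 136, 128 and 114 CPM with vehicle. The groups overlapped on both days. The fall at day 17 was 0.30 ± 0.10 (log2 ± SE; edgeR adjusted p = 0.0432) and passed in 2 of 13 other settings and 4 of 16 leave-one-out fits. Its paralogue Tbl1xr1 averaged 332 ± 41.4 CPM with entinostat and 316 ± 25.1 CPM with vehicle at day 10, and 286 ± 8.68 CPM with entinostat and 243 ± 47.2 CPM with vehicle at day 17. The day 17 difference of 0.23 ± 0.13 did not pass in the TMM scaling (edgeR adjusted p = 0.206), and 6 settings, library size alone and DESeq2 among them, called it higher. Ncor1, the corepressor itself, averaged 330.4 ± 29.2 CPM with entinostat and 415 ± 40.5 CPM with vehicle at day 10, and 249.6 ± 57.2 CPM with entinostat and 326 ± 37.5 CPM with vehicle at day 17, with an edgeR adjusted p of 0.0949 at day 10 and 0.0629 at day 17.

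No member of CoREST passed for entinostat on either day in the edgeR fit, although limma-voom called Kdm1a lower at day 10. Rcor1, its scaffold, averaged 96.4 ± 23.7 CPM with entinostat and 114 ± 14.03 CPM with vehicle at day 10, and 74.6 ± 13.2 CPM with entinostat and 67.4 ± 7.21 CPM with vehicle at day 17. The paralogue Rcor3 averaged 41.8 ± 5.34 CPM with entinostat and 39.6 ± 6.61 CPM with vehicle at day 10, and 36.7 ± 6.79 CPM with entinostat and 44.1 ± 8.67 CPM with vehicle at day 17. Kdm1a (LSD1), the histone demethylase of the complex, averaged 137 ± 7.98 CPM with entinostat and 163 ± 12.6 CPM with vehicle at day 10, and 105 ± 16.5 CPM with entinostat and 111 ± 6.90 CPM with vehicle at day 17. The Kdm1a libraries of the treatments did not overlap at day 10, but the difference of −0.25 ± 0.10 did not pass (edgeR adjusted p = 0.105).

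NuRD joins a chromatin remodelling ATPase to HDAC1 and HDAC2, and each copy carries either Mbd2, which binds methylated DNA, or Mbd3, which in mammals does not. With entinostat 2 of its 9 members were lower at day 10, and 1 was higher and 2 were lower at day 17. Mbd2 (chr18:70568225-70629134) had 70.6, 140.04, 62.6 and 84.7 CPM with entinostat at day 10, against 167, 162, 178 and 150.35 CPM with vehicle. At day 17 Mbd2 had 120.3, 151, 163 and 124 CPM with entinostat, against 67.8, 88.1, 65.6 and 55.9 CPM with vehicle. The groups did not overlap on either day and stood in opposite order, with vehicle the higher at day 10 and entinostat the higher at day 17. Mbd2 fell by 0.87 ± 0.20 at day 10 (log2 ± SE; edgeR adjusted p = 0.0103) and rose by 0.99 ± 0.20 at day 17 (edgeR adjusted p = 0.00247). The difference between the effects was 1.86 ± 0.28 (edgeR adjusted p = 0.0111), and Mbd2 was the only member among the 82 genes of all that passed that test. All 3 calls held in every other setting and every leave-one-out fit. Entinostat day 10 replicate 2, at 140.0 CPM, was above the other 3 libraries of its group, and without it the day 10 fold change was −1.12 (edgeR adjusted p = 0.000788).

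Mbd3 (chr10:80392539-80399531) had 56.1, 67.2, 56.4 and 72.02 CPM with entinostat at day 10, against 105, 105, 96.7 and 104 CPM with vehicle. At day 17 Mbd3 had 76.2, 78.9, 72.99 and 71.2 CPM with entinostat, against 111, 98.2, 97.3 and 88.1 CPM with vehicle. Unlike Mbd2 it was lower with entinostat on both days, with no overlap on either. Mbd3 fell by 0.70 ± 0.11 at day 10 (log2 ± SE; edgeR adjusted p = 0.00105), which held in every other setting and leave-one-out fit, and by 0.40 ± 0.11 at day 17 (edgeR adjusted p = 0.0197). The day 17 call was lost in 6 of 13 other settings, library size alone among them (adjusted p up to 0.119), and without entinostat day 17 replicate 1 or 4 or vehicle day 17 replicate 1 or 2 (edgeR adjusted p up to 0.108). The difference of its effects between days did not pass (edgeR adjusted p = 0.425).

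Chd3 (chr11:69343273-69369499) and Chd4 are the alternative ATPases of NuRD. Chd3 had 98.1, 134, 66.4 and 82.4 CPM with entinostat at day 17, against 264, 143, 195 and 189 CPM with vehicle. At day 10 Chd3 had 180.0, 167, 147 and 233 CPM with entinostat, against 201, 269.8, 259 and 203 CPM with vehicle. The groups were apart at day 17, where vehicle replicate 1 was the highest and entinostat replicate 3 the lowest, and overlapped at day 10. Chd3 fell by 1.01 ± 0.20 at day 17 (log2 ± SE; edgeR adjusted p = 0.00214), in every other setting and leave-one-out fit. At day 10 the log2 fold change was −0.36 ± 0.19 (edgeR adjusted p = 0.2), and the difference between days did not pass (edgeR adjusted p = 0.328). Chd4 averaged 291 ± 20.7 CPM with entinostat and 341 ± 26.3 CPM with vehicle at day 10, and 246 ± 27.02 CPM with entinostat and 298 ± 50.9 CPM with vehicle at day 17, and was not called on either day.

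The MTA scaffolds, which bind the HDACs directly, were not called. Mta2 averaged 298 ± 30.3 CPM with entinostat and 355 ± 22.99 CPM with vehicle at day 10, and 266 ± 25.7 CPM with entinostat and 301 ± 33.8 CPM with vehicle at day 17. Mta3 averaged 152 ± 9.82 CPM with entinostat and 158 ± 11.4 CPM with vehicle at day 10, and 123 ± 15.3 CPM with entinostat and 123 ± 14.8 CPM with vehicle at day 17. The Mta2 libraries of the treatments did not overlap at day 10, yet the difference did not pass (edgeR adjusted p = 0.0927). Mta1 varied most between libraries of a group. It had 17.5, 82.1, 23.4 and 34.9 CPM with entinostat and 49.2, 49.2, 36.4 and 54.9 CPM with vehicle at day 10. At day 17 it had 24.1, 64.1, 28.2 and 53.9 CPM with entinostat and 22.3, 21.4, 16.2 and 27.4 CPM with vehicle, and the difference of 1.00 ± 0.40 on the log2 scale did not pass (edgeR adjusted p = 0.0876). Replicate 2 of entinostat was the highest of its group on both days, and without entinostat day 10 replicate 2 the day 17 difference passed at an edgeR adjusted p of 0.0327.

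The bridging subunits of NuRD were not called for entinostat. Gatad2a averaged 297 ± 31.4 CPM with entinostat and 361 ± 35.7 CPM with vehicle at day 10, and 282 ± 36.4 CPM with entinostat and 258 ± 33.8 CPM with vehicle at day 17. Limma-voom called Gatad2a lower at day 10, and 3 alternatives that tested fewer genes called it higher at day 17. Gatad2b averaged 33.2 ± 6.13 CPM with entinostat and 27.3 ± 2.53 CPM with vehicle at day 10, and 25.3 ± 7.11 CPM with entinostat and 29.2 ± 4.12 CPM with vehicle at day 17.

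**Figure D3:**
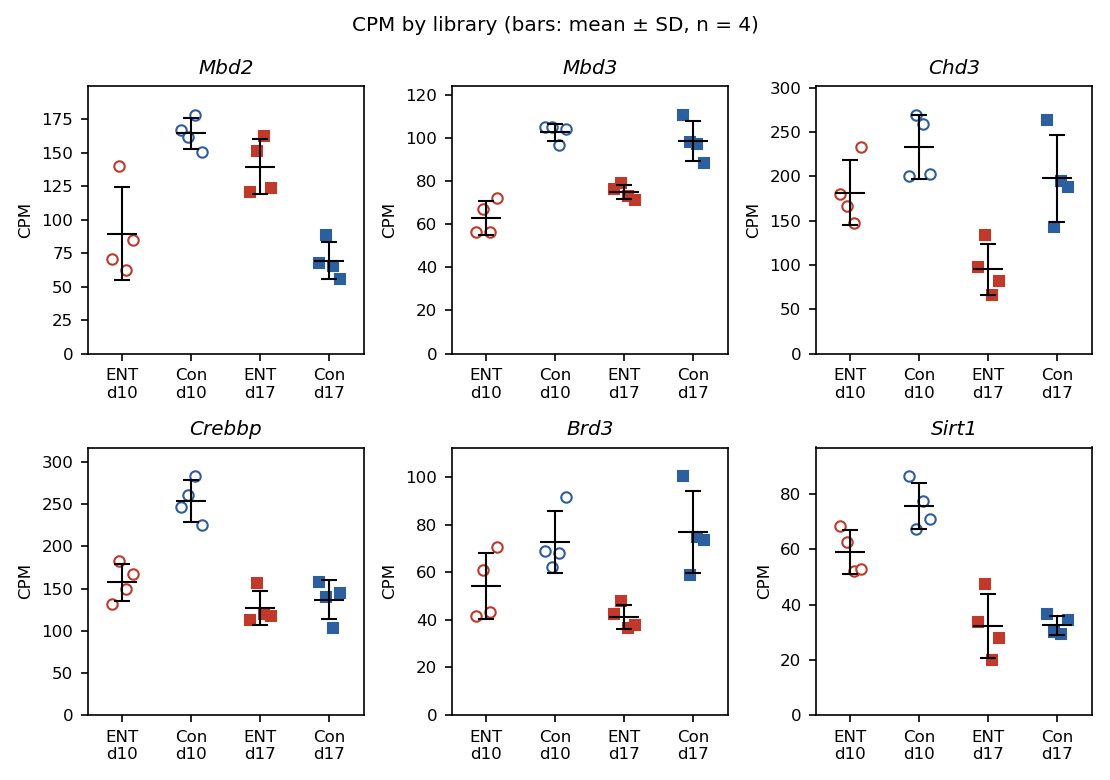
CPM of 6 members in each of the 16 libraries (vertical axes from 0), with entinostat (ENT, red) left of vehicle (Con, blue) at day 10 (open circles) and day 17 (filled squares), and bars for the mean ± SD of 4 libraries. Mbd2 is lower with entinostat at day 10 and higher with entinostat at day 17, Mbd3 is lower with entinostat on both days, and Sirt1 is lower at day 17 than at day 10 in both treatments.

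Rbbp4 and Rbbp7 are WD-repeat proteins that hold histones for SIN3, NuRD and other chromatin complexes, and Rbbp4 also serves the chromatin assembly factor of dividing cells. Rbbp4 (chr4:129307100-129335370) had 309, 270.1, 307 and 280.2 CPM with entinostat at day 17, against 225, 243, 246 and 215 CPM with vehicle. At day 10 Rbbp4 had 275, 283, 275 and 225 CPM with entinostat, against 284, 249.9, 268 and 251 CPM with vehicle. The day 17 groups did not overlap, and the day 10 groups did. Rbbp4 rose by 0.32 ± 0.09 at day 17 (log2 ± SE; edgeR adjusted p = 0.0211). The call was lost with no filter and with receptor reads as a covariate (adjusted p up to 0.122). Of 18 proliferation genes, 12 were called higher at day 17, against 5.29% of all genes, and a link to Rbbp4 was not tested. Sync and Gm26722 on the opposite strand share 8.9% and 9.1% of the Rbbp4 exon bases, whose reads cannot be told apart without strand. Rbbp7 averaged 179 ± 11.6 CPM with entinostat and 216 ± 5.94 CPM with vehicle at day 10, and 216 ± 34.8 CPM with entinostat and 204 ± 15.7 CPM with vehicle at day 17. Its treatments did not overlap at day 10 but the difference did not pass (edgeR adjusted p = 0.0771).

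Sirt1 is a deacetylase of another class, which uses NAD and is not a target of entinostat. Sirt1 had 68.4, 62.8, 52.1 and 52.9 CPM with entinostat and 86.5, 67.4, 77.4 and 71.1 CPM with vehicle at day 10. At day 17 it had 33.8, 47.4, 19.9 and 27.8 CPM with entinostat and 36.6, 29.9, 29.3 and 34.3 CPM with vehicle. The treatments did not differ beyond the test on either day (edgeR adjusted p = 0.192 at day 10 and 0.899 at day 17), and the day 17 libraries lay below the day 10 libraries in both.

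Read counts of paralogues within a library give a view that needs no scaling between libraries, and these ratios are described without a test. The 4 pairs detailed below are a selection from those computed. The treatments overlapped on both days for Kat2a to Kat2b, Kat6a to Kat6b, Sin3a to Sin3b, Rcor1 to Rcor3, Mta1 to Mta2, Mta3 to Mta2 and Rbbp4 to Rbbp7. They were apart at day 17 alone for Brd2 to Brd3 and Tbl1x to Tbl1xr1, and at day 10 alone for Gatad2a to Gatad2b. The ratio of Mbd2 to Mbd3 reads was 1.58, 1.91, 2.23 and 1.738 with entinostat at day 17, against 0.613, 0.898, 0.675 and 0.634 with vehicle. At day 10 it was 1.26, 2.08, 1.11 and 1.18 with entinostat, against 1.59, 1.54, 1.84 and 1.44 with vehicle. Mbd2 reads thus outnumbered Mbd3 reads in every library except the 4 of vehicle at day 17. Read ratios are not corrected for exon length, so they do not rank the transcripts of a pair. Per kb at day 10, Mbd3 averaged 31.7 and Mbd2 27.9 CPM with entinostat, and 51.7 and 51.1 CPM with vehicle. The ratio of Chd3 to Chd4 reads was 0.396, 0.477, 0.31 and 0.338 with entinostat at day 17, against 0.719, 0.52, 0.647 and 0.761 with vehicle, and at day 10 it was 0.487 to 0.743 with entinostat and 0.542 to 0.817 with vehicle. It was lower in all entinostat libraries at day 17 and overlapped at day 10. Brd7 to Brd9 was 1.30, 1.11, 1.19 and 1.13 with entinostat at day 17, against 0.863, 0.767, 1.04 and 0.985 with vehicle. At day 10 that ratio was 0.816, 0.9, 0.71 and 0.802 with entinostat, against 0.752, 0.76, 0.959 and 0.945 with vehicle. Only entinostat at day 17 thus had more Brd7 than Brd9 reads in all 4 libraries. Per kb of exon, the mean of Brd7 was above that of Brd9 in every group. Ep300 to Crebbp was 2.57, 1.85, 2.18 and 1.85 with entinostat at day 10, against 1.60, 1.41, 1.39 and 1.57 with vehicle. At day 17 it was 1.76 to 2.21 with entinostat and 1.80 to 2.75 with vehicle, and those groups overlapped.

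**Figure D4:**
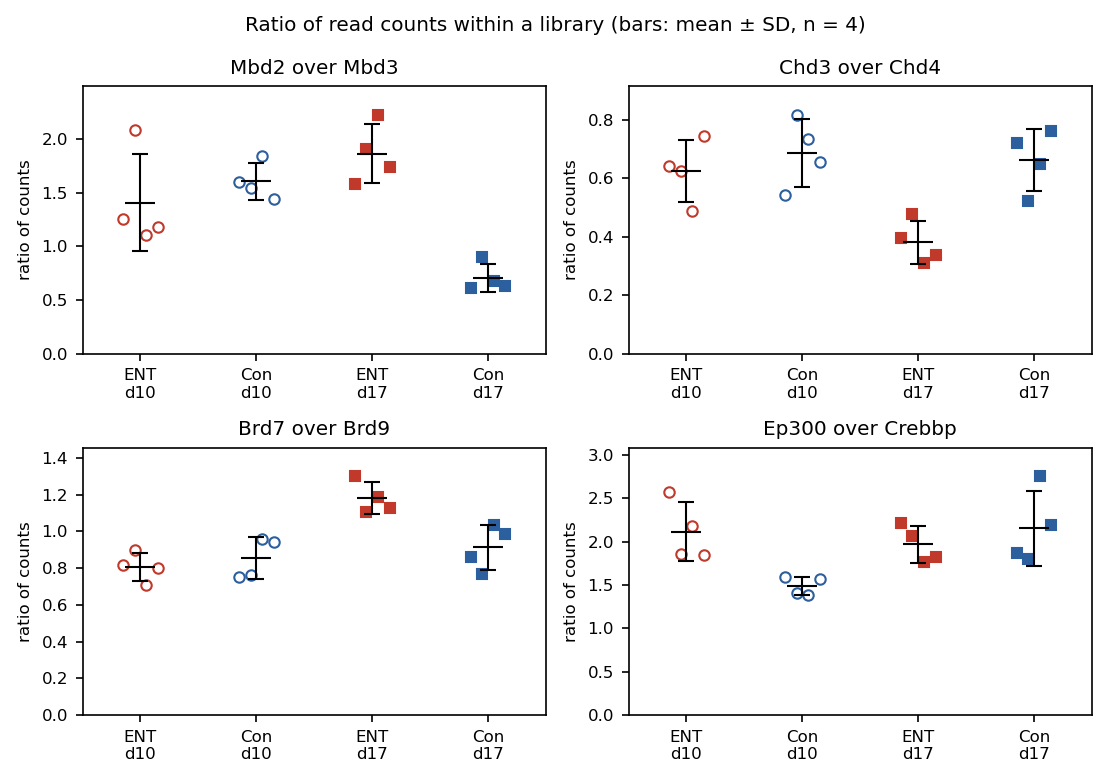
Ratio of the read counts of 2 members within each of the 16 libraries (vertical axes from 0), with entinostat (ENT, red) left of vehicle (Con, blue) at day 10 (open circles) and day 17 (filled squares), and bars for the mean ± SD of 4 libraries. Mbd2 over Mbd3 lies between 1.58 and 2.23 with entinostat at day 17 and between 0.613 and 0.898 with vehicle at day 17.

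Between the days, in either treatment, more members were called than between treatments at day 10. With vehicle, 0 members were higher and 8 lower at day 17 than at day 10, against 1.89% of all genes higher and 3.63% lower. With entinostat, 1 member was higher and 13 were lower at day 17 than at day 10, against 3.26% of all genes higher and 10.5% lower. The vehicle count was 14 when replicate 1 of day 17 was left out and 5 when replicate 3 of day 10 was left out. Over all genes, 1217 were higher and 1482 lower in the first of these fits, and 47 and 165 in the second, against 329 and 632 with all libraries. The entinostat count was 8 when replicate 4 of day 10, or replicate 1 or 4 of day 17, was left out, and 9 when replicate 3 of day 17 was left out. Those entinostat fits called 350 to 571 of all genes higher and 1398 to 1548 lower, against 568 and 1825 with all libraries. The labels do not pair libraries of the 2 days. Brd1, Brd2, Kdm1a and Sirt1 were lower at day 17 in both treatments. Sirt1 fell by 0.81 ± 0.20 with entinostat (log2 ± SE; edgeR adjusted p = 0.0102) and by 1.21 ± 0.19 with vehicle (edgeR adjusted p = 0.0032), and Brd2 by 0.49 ± 0.09 with entinostat (edgeR adjusted p = 0.000924) and by 0.42 ± 0.09 with vehicle (edgeR adjusted p = 0.0103). These 4 calls of Sirt1 and Brd2 passed in every other setting and leave-one-out fit. Kdm1a fell by 0.37 ± 0.11 with entinostat (edgeR adjusted p = 0.0272) and by 0.55 ± 0.10 with vehicle (edgeR adjusted p = 0.00778), and Brd1 by 0.74 ± 0.22 with entinostat (edgeR adjusted p = 0.0296) and by 0.91 ± 0.21 with vehicle (edgeR adjusted p = 0.021). The entinostat call of Kdm1a was lost in 4 of 10 other settings and that of Brd1 in 6 of 10, each was lost in 4 of 16 leave-one-out fits, and the vehicle call of Brd1 was lost without vehicle day 10 replicate 1 or 3 or vehicle day 17 replicate 2.

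Crebbp, Mbd2, Rcor1 and Gatad2a were lower at day 17 with vehicle and were not called lower with entinostat. Crebbp had a log2 fold change of −0.31 ± 0.14 with entinostat (edgeR adjusted p = 0.164) and fell by 0.89 ± 0.14 with vehicle (edgeR adjusted p = 0.00264). Rcor1 had −0.36 ± 0.17 with entinostat (edgeR adjusted p = 0.164) and fell by 0.76 ± 0.16 with vehicle (edgeR adjusted p = 0.014), a call lost without vehicle day 10 replicate 3. Gatad2a had −0.07 ± 0.12 with entinostat (edgeR adjusted p = 0.767) and fell by 0.48 ± 0.12 with vehicle (edgeR adjusted p = 0.0258), a call lost without vehicle day 10 replicate 2 or 3 or vehicle day 17 replicate 2. Mbd2 rose by 0.62 ± 0.20 with entinostat (edgeR adjusted p = 0.0475) and fell by 1.24 ± 0.20 with vehicle (edgeR adjusted p = 0.0032). The rise with entinostat was lost in 12 of 16 leave-one-out fits, and the fall with vehicle was kept in all. Only for Mbd2 did the change over time differ between treatments by the test of that difference, which is the same number as the difference of the entinostat effects between days.

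Of the members lower at day 17 with entinostat and not called with vehicle, Chd3 changed most: it fell by 0.89 ± 0.20 with entinostat (edgeR adjusted p = 0.00675), with −0.23 ± 0.19 with vehicle (edgeR adjusted p = 0.447). Kat6a fell by 0.64 ± 0.14 with entinostat (edgeR adjusted p = 0.00414), with −0.43 ± 0.13 with vehicle (edgeR adjusted p = 0.0587), and Brd9 fell by 0.62 ± 0.13 with entinostat (edgeR adjusted p = 0.00376), with −0.14 ± 0.13 with vehicle (edgeR adjusted p = 0.492). These falls of Chd3, Kat6a and Brd9 passed in every other setting and leave-one-out fit. The others were Kat2b, Ep300, Kat5, Brd8, Sap18 and Tbl1x, with falls between −0.31 and −0.61 on the log2 scale, and each of their calls was lost in at least 3 of 10 other settings. Of all 37 members, 15 passed in no comparison, among them Kat7, Kat8, Sin3a, Sin3b, Ncor1, Chd4 and the 3 MTA scaffolds.

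**Figure D5:**
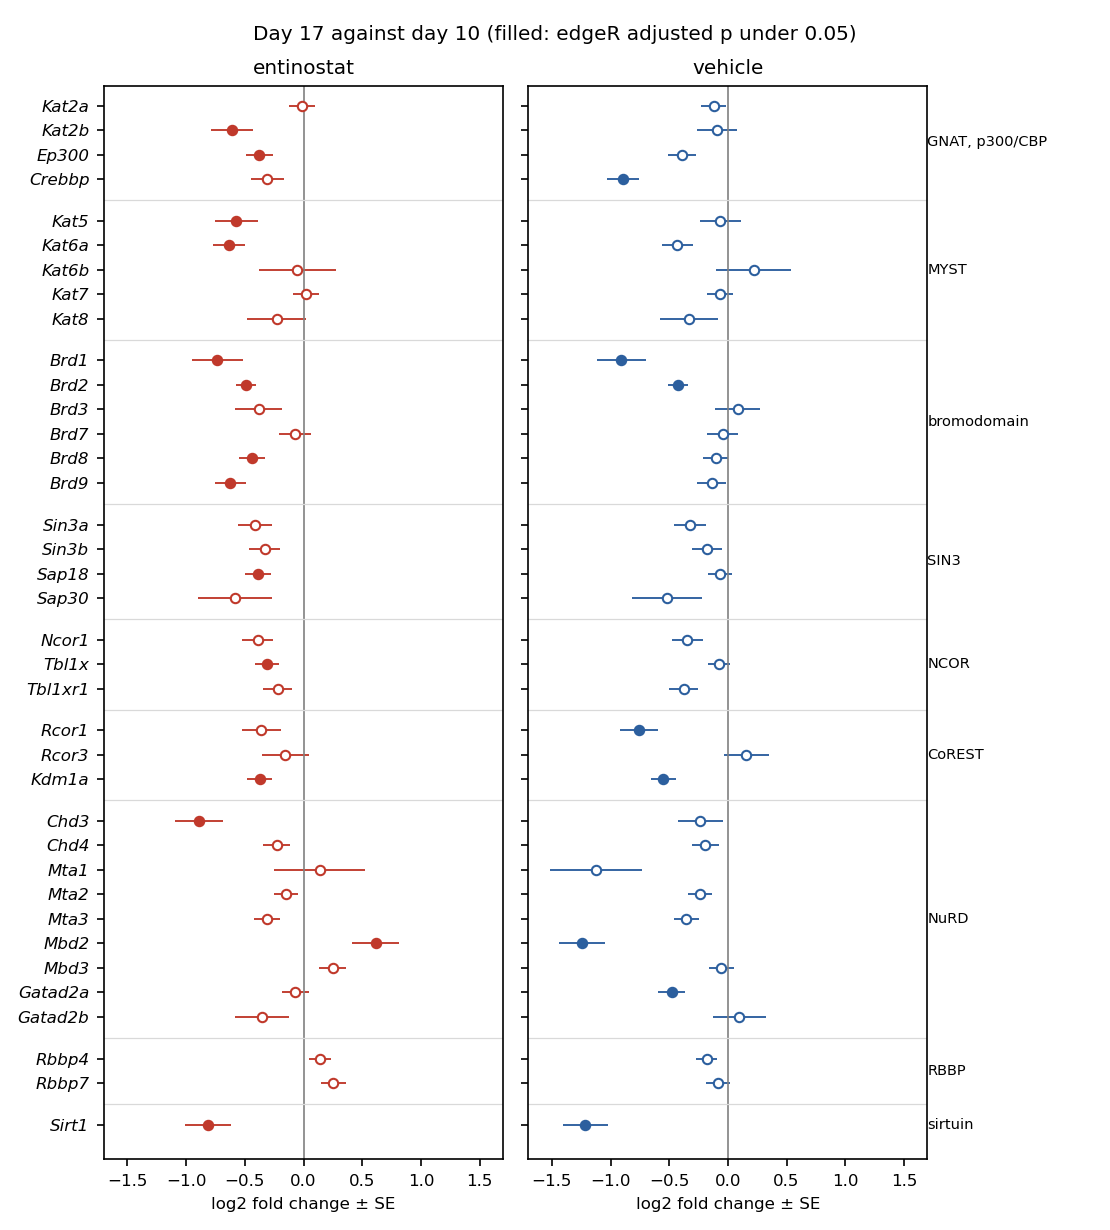
Log2 fold change of day 17 over day 10 with its SE (horizontal axis) for the 37 members (vertical axis), with entinostat on the left and vehicle on the right, and filled points for an edgeR adjusted p under 0.05. Sirt1 and Brd2 lie left of 0 in both panels, and Mbd2 lies at 0.62 with entinostat and at −1.24 with vehicle.

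Other genes of these pathways were taken from lists made for this work. Of the HDACs that these complexes carry, 0 of 3 were called at day 10 and 1 of 3 at day 17. Hdac1 averaged 149 ± 10.3 CPM with entinostat and 113 ± 16.95 CPM with vehicle at day 17, a rise of 0.39 ± 0.11 (log2 ± SE; edgeR adjusted p = 0.0217). Hdac2 had a log2 fold change of 0.09 ± 0.11 and Hdac3 of −0.20 ± 0.12 at day 17, neither of which passed. Of 38 other acetyltransferases and partners tested, 0 rose and 8 fell at day 10, and 1 rose and 11 fell at day 17. The smallest p-values at day 17 among those that fell belonged to Epc1 of the NuA4 complex, which holds Kat5 and Brd8 (−1.08 ± 0.16 log2 ± SE, edgeR adjusted p = 0.000178), Supt20 of the Kat2a complex SAGA (−0.46 ± 0.10), Msl1, which scaffolds a Kat8 complex (−0.77 ± 0.17), and the coactivator Ncoa2 (−0.61 ± 0.14). Supt20 was also lower at day 10 (−0.43 ± 0.09). The only one that rose, singled out after its value was seen, was Tada2a of the GCN5 complexes (0.87 ± 0.28, edgeR adjusted p = 0.0385).

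Of 24 other bromodomain proteins, 1 rose and 2 fell at day 10, and 1 rose and 8 fell at day 17. At day 17 Smarca2, an ATPase of the BAF complex, fell by 0.82 ± 0.14 (edgeR adjusted p = 0.000508), Zmynd11 fell by 0.62 ± 0.12, Baz2b fell by 1.13 ± 0.22 and Baz2a fell by 0.59 ± 0.12, all on the log2 scale. Cecr2 was the 1 that rose on each day, singled out after its values were seen, by 2.12 ± 0.61 at day 10 and 1.71 ± 0.58 at day 17. Of 29 other corepressor subunits tested, 0 rose and 3 fell at day 10, and 0 rose and 13 fell at day 17. Rere, a corepressor that binds HDAC1, fell by 1.19 ± 0.16 at day 17 (edgeR adjusted p = 7.79e-05), against −0.11 ± 0.15 at day 10, and was the only one of the 29 whose effect differed between days (−1.08 ± 0.22, edgeR adjusted p = 0.0434). Elmsan1, which joins HDAC1 in the MiDAC complex, fell by 1.03 ± 0.15, Zmym2, a partner of CoREST, by 0.68 ± 0.10, and Gps2, a subunit of NCOR, by 0.61 ± 0.13 at day 17. Of 6 other sirtuins, 0 were called at day 10 and 1 at day 17, Sirt7, which fell by 0.53 ± 0.12 (edgeR adjusted p = 0.00396). The shares of all genes called in each comparison are those given above, and how far calls depend on scaling was examined for the 37 members only.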

How the data were processed

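RNA of 16 libraries was measured by RNA sequencing after full-length cDNA amplification with SMART-seq v4 and tagmentation with Nextera XT, per the labels' protocols. This chemistry marks neither strand nor single molecules. The deposited values are whole read counts per gene for 24028 genes, made by the authors without scaling between libraries. The submitters' processing notes name STAR and mm10. The counting program is not given in the sources used here. Counts of the most abundant genes grew less than depth: Actb had 1618 counts in the shallowest library, which held 554593 counts, and 3265 in the deepest, which held 6975904. Precision follows depth and counting errors cover counting alone, since PCR copies cannot be told apart.

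Groups, days and doses came from the labels. The 37 members, the other lists and the rule for naming genes were chosen with earlier results of these data known. Genes were kept by filterByExpr at a minimum count of 10, leaving 17414 genes and all 37 members. Group means were fitted over 16 libraries with edgeR 4.0.16 in R 4.3.3 (TMM scaling, quasi-likelihood test, 12 residual degrees of freedom), and p-values were adjusted by Benjamini-Hochberg over all genes tested, with a threshold of 0.05. This edgeR fit of group means was checked on simulated counts, and the alternative fits were not. CPM and ratios were computed here. Every member is named, members called in an entinostat comparison with every library, and of each other list up to 4 called genes of smallest p at day 17, plus Hdac1, Hdac2 and Hdac3.

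Whether equal replicate numbers pair libraries was checked by correlating deviations from the group means over 9799 genes above a mean of 16 CPM. Between entinostat and vehicle at day 10 the correlations were 0.259, 0.260, 0.232 and 0.270 for numbers 1 to 4, but the best match of number 3 was number 1. Over all 17414 genes the correlations were lower, at 0.180, 0.0329, 0.114 and 0.0572, and the best matches of numbers 2, 3 and 4 were 1, 1 and 2. Whether the numbers pair the libraries at day 10 is thus unsettled, and no label states it. The main fit used no pairing, and fits with the replicate number as a block are given as alternatives. In no other comparison were all 4 over 0.1. Libraries of a group always differed by more than counting noise, with a chi-square over its degrees of freedom of at least 2.96. Alternatives were DESeq2 1.42.0, limma-voom with limma 3.58.1, no filter or a minimum count of 50, scaling by RLE or by library size alone, genes above the receptor background, only the groups compared, a receptor covariate, the replicate block over all libraries or within each day, and leaving out each library. A further 2, which combine the block with the covariate or with the background filter, were chosen after seeing the data. Exon overlaps came from GENCODE vM21 and positions and promoters from RefSeq tables of GRCm38.p6.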

Additional observations from a re-analysis of the deposited data

Results flagged for a closer look

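The effect of entinostat on Mbd2 differed between the days by 1.86 ± 0.28 (log2 ± SE, day 17 minus day 10; edgeR quasi-likelihood test, adjusted p = 0.0111), with every entinostat library below every vehicle library at day 10 and above every vehicle library at day 17. The difference was 2.14 without entinostat day 10 replicate 2, the library with the highest Mbd2 of its group.

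In 10 of 148 combinations of member and group, 1 library stood apart from the other 3 by Dixon's criterion, which chance meets in about 1 of 20 groups. With entinostat at day 10, replicate 2 had 344 CPM of Gatad2a against 278 to 286 in the others, and replicate 4 had 225 CPM of Rbbp4 against 275 to 283. With entinostat at day 17, replicate 2 was high for Crebbp (157 CPM against 113 to 119) and for Rcor1 (94.2 CPM against 66.9 to 69.7). In the same group replicate 3, the shallowest library, was low for Rcor3 (26.5 CPM against 39.5 to 40.4), and replicate 4 was low for Tbl1xr1 (273 CPM against 289 to 292). With vehicle at day 10, replicate 4 was low for Brd2 (428 CPM against 485 to 495). Replicate 3 of that group was low for Mbd3 (96.7 CPM against 104 to 105) and high for Mta2 (389 CPM against 340.3 to 347). With vehicle at day 17, replicate 1, the deepest library, was high for Rcor1 (78.2 CPM against 63.8 in each of the others).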

How the results depend on the processing

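Of 5106 values computed under alternative settings, 4751 kept their side of the threshold, 261 lost the call and 94 gained one. The sign changed in 340 values, all of members not called, and in 0 called ones. Kept under every alternative were the calls of Crebbp, Mbd2 and Mbd3 at day 10, of Brd3, Chd3 and Mbd2 at day 17, and of Mbd2 for the difference between days. Over time with vehicle, the calls of Crebbp, Brd2, Kdm1a, Mbd2 and Sirt1 were also kept. Over time with entinostat, those of Kat6a, Brd2, Brd9, Chd3 and Sirt1 were kept. At day 10 the count of 5 members was 14 with limma-voom, 3 with library size alone and 3 on blocking by replicate number within days among genes above the receptor background. That last fit called 320 of 11992 genes higher and 427 lower, against 1328 and 1206 of 17414 in the TMM fit. At day 17 the count of 14 was 5 with library size alone, 7 with a minimum count of 50, 7 with genes above the receptor background, 6 with only the groups compared, 9 with the receptor covariate, 4 with the block and that covariate, and 8 with the block on genes above background. Over all genes 922 were higher and 2268 lower in the TMM fit. These numbers were 1023 and 1461 of 11401 with a minimum count of 50, and 858 and 1490 of 16017 with only the groups compared. They were 962 and 1906 with the receptor covariate, 573 and 1414 with the block and that covariate, and 902 and 1302 of 11992 with the block on genes above background. The difference between days had 1 call and 3 with DESeq2, against 38 higher and 44 lower of all genes in the TMM fit and 329 and 234 with DESeq2. Over time with vehicle the count of 8 was 13 with DESeq2 and 13 with limma-voom. Calls over all genes also grew there, from 329 higher and 632 lower in the TMM fit to 1030 and 1128 with DESeq2 and 1316 and 1488 with limma-voom. Over time with entinostat the count of 14 was 8 with library size alone, 9 with a minimum count of 50, 6 with only the groups compared and 9 with the receptor covariate. Over all genes 568 were higher and 1825 lower in the TMM fit. These numbers were 913 and 1195 with library size alone and 907 and 1432 of 11401 with a minimum count of 50. They were 724 and 1302 of 15957 with only the groups compared, and 698 and 1581 with the receptor covariate. The cause of these shifts was not tested. With the replicate block over all libraries the counts were 4 at day 10, 11 at day 17, 1 for the difference, 9 with vehicle and 10 with entinostat over time, and with the block within each day 4, 10 and 1. Of all genes the block over all libraries called 675 higher and 886 lower at day 10, and 694 and 2030 at day 17. Over time that block called 298 and 560 with vehicle, and 495 and 1646 with entinostat. The block within each day called 418 and 742 at day 10, and 625 and 1837 at day 17. Leaving out 1 library gave 4 to 6 at day 10, 6 to 14 at day 17, 1 for the difference, 5 to 14 with vehicle and 8 to 17 with entinostat over time. Over all genes the same fits gave 376 to 2637 higher and 534 to 1514 lower at day 10, and 437 to 1395 and 1356 to 2263 at day 17. Over time they gave 47 to 1217 and 165 to 1482 with vehicle, and 336 to 668 and 1398 to 2161 with entinostat. Counting error weighs most on low transcripts such as Sap30, at 5 to 244 counts a library.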
